A study of Homo sapiens with 6 samples.

Results

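The genes described here encode proteins of the epithelial cell junctions. They were 42 genes chosen by symbol, of the 60664 in the deposited count table: 18 of the tight junction, 9 of the adherens junction and 13 of the desmosome, with EPCAM and ST14 as 2 further genes that act on these structures. The cells were PC9OR, labelled as lung cancer cells; PC9 is an established line from a human lung adenocarcinoma that carries an activating EGFR deletion. There were 3 NC libraries, whose genotype is labelled control, and 3 si-GLMP libraries, labelled as a knockdown of GLMP, which encodes a glycosylated lysosomal membrane protein. The series title links GLMP to EGFR inhibitor resistance, to autophagy and to RhoA. The labels name no siRNA sequence, drug treatment or time after transfection, and they do not say whether the replicates were separate cultures, so the spread behind each p-value may be technical.

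Epithelial cells are joined by 3 stacked structures. The tight junction seals the space between cells near their apical edge: claudins form its strands, occludin and the tricellulin family join them, zonula occludens and cingulin proteins link them to actin, and the PAR and Crumbs polarity complexes set its position. The adherens junction below it holds cells together through cadherins, bound inside the cell by catenins, and through nectins, bound by afadin. Desmosomes tie the keratin filaments of neighbouring cells together through desmogleins and desmocollins, the armadillo proteins plakoglobin and the plakophilins, and the plakins. In carcinoma cells the loss or rearrangement of these proteins is a common mark of changed epithelial state.

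Library totals ran from 19896875 to 22372878 counts. GLMP fell from 15.9 ± 0.796 to 3.34 ± 0.590 CPM (mean ± SD, n = 3 each), where CPM is the count scaled to library size by TMM. Its log2 fold change, with the standard error as for all such values here, was -2.25 ± 0.14 (edgeR adjusted p = 1.16e-18). TMEM79, on the other strand, overlaps 17.5% of the GLMP exons. The share of mitochondrially encoded RNA was 8.76% in NC replicate 2, 6.51% and 6.57% in the other NC libraries, and 5.19% to 5.51% over the si-GLMP libraries. Each si-GLMP library was thus below each NC library, NC replicate 2 stood apart as the highest, and the part of this difference in the results was not tested. Libraries of a group were also compared in pairs over all tested genes, by chi-square per degree of freedom. It was 10.28 between NC replicates 1 and 2, 11.9 between NC replicates 2 and 3, and 2.22 between NC replicates 1 and 3. Over the si-GLMP pairs it ran from 4.74 to 8.94. Of the markers listed for a lung adenocarcinoma epithelium, EPCAM, KRT7, KRT8, KRT18 and KRT19 were abundant, but the lung lineage markers NKX2-1 (0.130 CPM in NC and no count in si-GLMP) and SFTPB (0.0483 and 0.112 CPM) were under the floor of 3 counts, 0.134 to 0.151 CPM, on average, and NAPSA had 2 to 13 counts in a library. KRT7 was lower in si-GLMP (-0.27 ± 0.06, edgeR adjusted p = 0.00105), and KRT8, KRT18 and KRT19 were not called. The 8 fibroblast markers ranged in sum from 6.57 to 8.38 CPM over the NC libraries and from 10.85 to 12.95 CPM over the si-GLMP libraries, of which COL1A1 made up 5.38 and 10.1 CPM (edgeR adjusted p = 1.59e-06), while COL3A1, DCN and LUM were at or near 0. The 6 endothelial markers ranged in sum from 5.12 to 7.73 CPM in NC and from 6.88 to 7.69 CPM in si-GLMP, and the 6 leukocyte markers to at most 1.33 CPM in any library.

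The chosen junction genes changed in both directions after GLMP knockdown, with more rises than falls. Of the 42 genes, 39 passed the filter on low counts; the other 3, the desmosomal genes PKP1, DSG3 and DSC3, were near the floor in both groups. At an edgeR adjusted p under 0.05, 14 of the 39 were higher in si-GLMP and 6 lower, together 51.3%, where 23.3% of all 15900 tested genes were called, 12.0% as higher and 11.3% as lower. The 42 genes were chosen with earlier results of these data known, so these shares are descriptions only. With a filter of 1 CPM in 3 libraries, 21 of 39 junction genes and 3713 of 13929 genes were called. The part of abundance in this difference was not tested. The median log2 fold change of the 39 was 0.13, against 0.0036 over all tested genes; without si-GLMP replicate 2 it was 0.085. Whether fewer cells made an RNA or each cell made less cannot be told apart in bulk libraries. Most changes were small: the median absolute log2 fold change was 0.27, against 0.18 over all tested genes. Rises of 0.5 or more were seen in 5 genes, namely NECTIN4, CLDN3, DSC2, CLDN4 and NECTIN1. In all, 7.88% of tested genes were called with a change of that size in either direction. Among the chosen genes, the 3 structures differed in their counts. Of 18 tight junction genes 7 were higher and 3 lower, of 9 adherens junction genes 4 were higher and 0 lower, and of 10 tested desmosome genes 1 was higher and 3 lower. PKP4, 1 of the 3 lower desmosome genes, encodes a protein also found at adherens junctions, so the counts of both structures depend on its placement. The 0 among the adherens junction genes was also the count at an unadjusted p under 0.05 and with DESeq2 and limma-voom, while NECTIN2 was called lower in the fit with the GC and length trend taken out. Without NC replicate 2, whose mitochondrial share stood apart, 12 junction genes were higher and 5 lower. No test was made of the difference between the structures. The excess of rises was that of the chosen genes, not of all genes of these structures. Of 22 further tight junction genes tested, 1 was higher and 4 lower. Of 12 further adherens junction genes tested, 1 was higher and 5 lower. The desmosome count depended on the correction for gene composition: with a trend on GC content and length removed, 4 desmosome genes were higher and 3 lower.

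**Figure D1:**
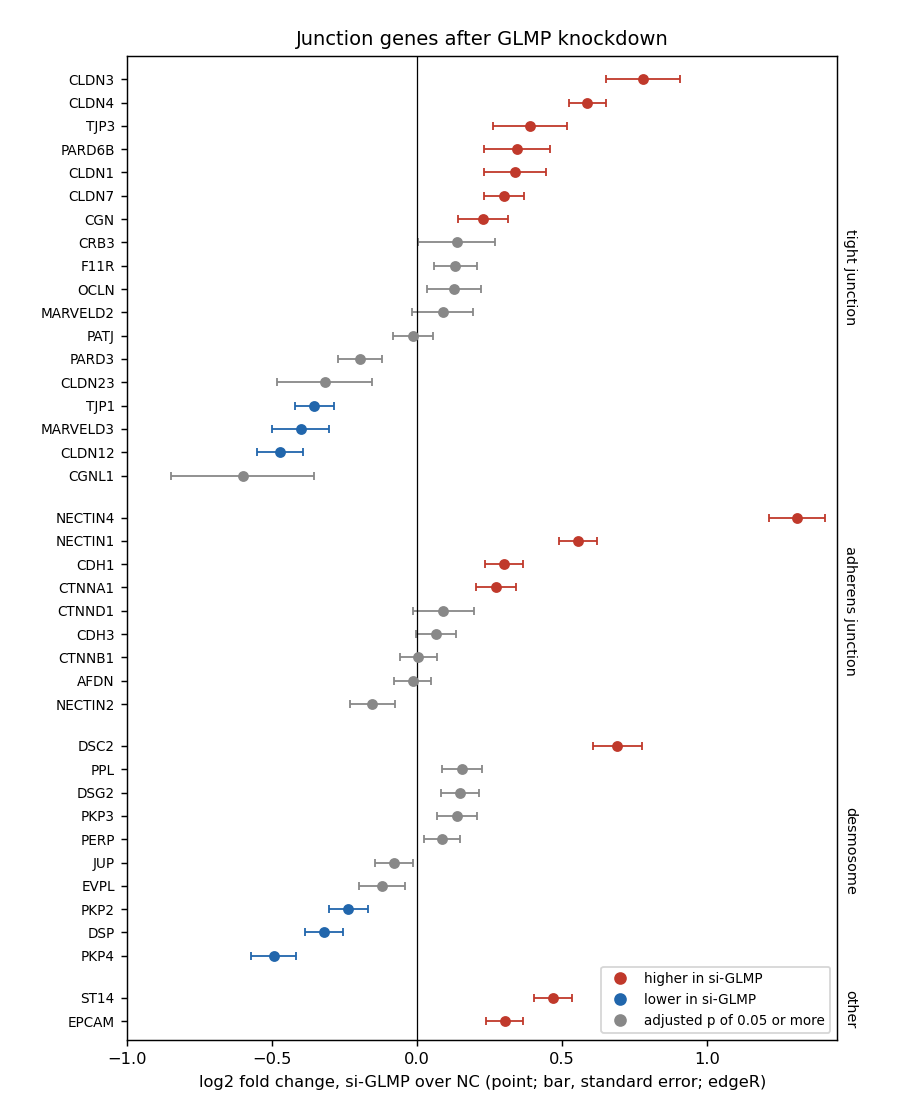
Log2 fold change of each tested junction gene, si-GLMP over NC, with its standard error, grouped by structure ("other" holds ST14 and EPCAM). Red points were called higher, blue points lower and grey points not called at an edgeR adjusted p under 0.05; NECTIN4 lies farthest right at 1.31, and the calls among desmosome genes are 1 rise and 3 falls.

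The RNA was also summed over each structure. Tight junction genes summed to 1074.4 ± 5.65 in NC and 1232.6 ± 35.7 CPM in si-GLMP (mean ± SD, n = 3 each), a ratio of 1.15. Adherens junction genes summed to 1696.7 ± 73.9 and 1951.1 ± 76.0 CPM, also a ratio of 1.15. Desmosome genes summed to 3071.7 ± 157 in NC and 2915.8 ± 54.2 CPM in si-GLMP, a ratio of 0.949, with the highest si-GLMP library at 2962.4 CPM just under the lowest NC library at 2965.1 CPM. NC replicate 2 had the highest desmosome sum, 3252.3 CPM, against 2997.7 and 2965.1 CPM in NC replicates 1 and 3, so the ratio rests in part on that library and on DSP. Without DSP, the desmosome sum was 2107.4 ± 75.87 and 2143.6 ± 28.99 CPM, a ratio of 1.02. The sums are descriptions and were not tested, and they follow the most abundant genes.

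The promoters of 5 of the changed genes are shown to let their sequences be set beside their opposite changes: NECTIN4, CLDN3 and CLDN4, which rose, and DSP and CLDN12, which fell. They were chosen after their values were seen, from the 27 of 42 genes with an entry in the RefSeq promoter windows of GRCh38.p14, which run from 250 bases before a start to 50 after it. The windows are chr1:161089509-161089808 on the minus strand for NECTIN4, chr7:73770221-73770520 on the minus strand for CLDN3, chr7:73830746-73831045 on the plus strand for CLDN4, chr6:7541421-7541720 on the plus strand for DSP and chr7:90403211-90403510 on the plus strand for CLDN12. Each is written 5′ to 3′ on the strand of its gene, with matches to any of the searched motifs in capitals.
NECTIN4: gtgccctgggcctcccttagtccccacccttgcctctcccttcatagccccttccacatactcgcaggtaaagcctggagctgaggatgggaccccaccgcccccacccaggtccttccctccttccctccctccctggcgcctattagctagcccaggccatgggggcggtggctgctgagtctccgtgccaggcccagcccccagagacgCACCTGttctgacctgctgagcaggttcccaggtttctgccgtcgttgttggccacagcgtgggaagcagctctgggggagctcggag
CLDN3: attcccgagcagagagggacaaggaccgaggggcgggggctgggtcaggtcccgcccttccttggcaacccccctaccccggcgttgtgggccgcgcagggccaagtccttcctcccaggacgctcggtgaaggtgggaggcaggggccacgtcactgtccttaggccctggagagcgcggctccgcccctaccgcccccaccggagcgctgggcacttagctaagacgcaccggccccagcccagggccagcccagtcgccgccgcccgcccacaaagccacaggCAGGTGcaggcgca
CLDN4: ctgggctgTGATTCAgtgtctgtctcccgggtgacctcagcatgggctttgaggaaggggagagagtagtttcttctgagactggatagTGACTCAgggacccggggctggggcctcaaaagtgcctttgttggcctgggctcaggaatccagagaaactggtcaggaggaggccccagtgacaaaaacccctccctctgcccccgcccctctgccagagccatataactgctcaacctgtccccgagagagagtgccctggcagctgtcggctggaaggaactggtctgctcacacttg
DSP: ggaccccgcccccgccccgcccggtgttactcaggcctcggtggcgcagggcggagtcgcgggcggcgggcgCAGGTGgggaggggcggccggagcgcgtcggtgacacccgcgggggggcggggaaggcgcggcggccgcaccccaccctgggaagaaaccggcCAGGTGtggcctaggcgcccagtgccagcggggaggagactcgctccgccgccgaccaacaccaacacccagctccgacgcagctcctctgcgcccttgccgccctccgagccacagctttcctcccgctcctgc
CLDN12: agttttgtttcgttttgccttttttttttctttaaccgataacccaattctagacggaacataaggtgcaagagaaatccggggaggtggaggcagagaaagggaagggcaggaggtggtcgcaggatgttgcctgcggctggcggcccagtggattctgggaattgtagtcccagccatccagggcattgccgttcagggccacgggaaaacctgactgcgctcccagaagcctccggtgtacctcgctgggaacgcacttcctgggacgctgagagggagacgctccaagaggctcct
Searched on both strands were CAGGTG, the E-box that ZEB and SNAIL repressors can bind, TGANTCA of AP-1 factors, GGAATG of TEAD factors and AACCNGTT of grainyhead-like factors, none of which overlapped another in these 5 windows.

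The E-box CAGGTG or its complement was in NECTIN4 and CLDN3, each with 1 match, and in DSP with 2, so it was present in promoters of both directions. CLDN4 held 2 matches to TGANTCA, and CLDN12 held none of the 4 motifs. Among all 35116 promoter windows, CAGGTG was in 20.6%, GGAATG in 14.0%, TGANTCA in 7.7% and AACCNGTT in 1.7%. In the 15 windows of junction genes called higher, which include alternative starts of the same gene, CAGGTG was in 5, TGANTCA in 1 and AACCNGTT in 1, the last of these in CGN. In the 8 windows of genes called lower CAGGTG was in 2, and in the 13 of genes not called it was in 7 and TGANTCA in 1. GGAATG was in none of the windows of the tested junction genes. These are matches of letters in short windows and say nothing of binding.

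Among the tight junction strand proteins, 4 of the 6 claudin genes rose and 1 fell. CLDN4 (ENSG00000189143), a claudin that limits sodium passage between cells, was the most abundant claudin per kilobase of exon. Its level was 356.0, 330.4 and 352.7 CPM in NC replicates 1 to 3, and 547.5, 493.2 and 520.1 CPM in si-GLMP replicates 1 to 3. The groups were far apart, and the log2 fold change was 0.59 ± 0.06 (edgeR adjusted p = 1.32e-10). CLDN3 (ENSG00000165215), a sealing claudin, was at 7.68, 7.34 and 8.52 CPM in NC and at 14.2, 11.6 and 14.7 CPM in si-GLMP. Each si-GLMP library was above each NC library for CLDN3, and the log2 fold change was 0.78 ± 0.13 (edgeR adjusted p = 2.88e-06). The 2 genes are neighbours on chromosome 7 of GRCh38, CLDN3 from 73768997 to 73770270 on the minus strand and CLDN4 from 73799542 to 73832693 on the plus strand, 29271 bases apart. That distance is between the GENCODE gene models. The RefSeq promoter window of CLDN4 shown above lies within its gene model, farther from CLDN3.

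CLDN7, a claudin that binds EPCAM, rose from a mean of 112.0 to 137.8 CPM (log2 fold change 0.30); 10.8% of its exonic length lies within another gene model on the same strand. CLDN1, a barrier-forming claudin, rose from 15.3 to 19.3 CPM (0.34), but its edgeR adjusted p of 0.0146 became 0.0946 without NC replicate 1 and 0.0811 without si-GLMP replicate 2. CLDN12, a claudin that lacks the usual C-terminal PDZ-binding motif, went the other way, from 54.9 to 39.6 CPM (-0.47 ± 0.08, edgeR adjusted p = 6.14e-06). Gene models on the same strand, GTPBP10 among them, each share 3.0% to 5.5% of the exonic length of CLDN12. GTPBP10 was not called (-0.13, edgeR adjusted p = 0.313). CLDN23 did not pass, with 5.84 and 4.69 CPM (-0.32 ± 0.16, edgeR adjusted p = 0.162). Per kilobase of exon, CLDN4 made up 51.7% to 53.9% of the RNA of these 6 claudins in the NC libraries and 58.0% to 58.6% in the si-GLMP libraries. The share of CLDN12 was 5.59% to 6.10% in NC and 2.81% to 3.51% in si-GLMP, and that of CLDN7 31.5% to 32.9% in NC and 28.5% to 29.6% in si-GLMP. For each of these 3 claudins the ranges of the share did not overlap.

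Of the other 4 membrane proteins of the tight junction, 1 was called. OCLN (ENSG00000197822), which encodes occludin, was at 27.8, 23.98 and 27.96 CPM in NC and at 29.7, 31.5 and 26.0 CPM in si-GLMP. Its groups overlapped, and the gene did not pass (log2 fold change 0.13 ± 0.09, with an edgeR adjusted p of 0.352). Leaving out 1 library at a time moved the OCLN value: it was 0.0606 when NC replicate 2 was dropped, 0.0659 when si-GLMP replicate 2 was and 0.2107 when si-GLMP replicate 3 was. MARVELD2, which encodes tricellulin, the protein of the points where 3 cells meet, was not called either, at 16.5 and 17.5 CPM, nor was F11R, the junctional adhesion molecule A gene, at 61.4 and 67.3 CPM. Another gene model on the same strand covers 36.6% of the F11R exons. MARVELD3, the third of the occludin family, fell from 22.5 to 17.1 CPM (-0.40 ± 0.10, edgeR adjusted p = 0.00161). MARVELD3 shares 16.6% of its exonic length with PHLPP2 on the opposite strand, and PHLPP2 was higher in si-GLMP (0.33, edgeR adjusted p = 0.00328).

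The plaque proteins under the strands went both ways. TJP1 (ENSG00000104067), which encodes ZO-1, the scaffold that binds claudins and occludin to actin, was at 182.0, 209.9 and 178.4 CPM in NC and at 146.0, 149.3 and 150.4 CPM in si-GLMP. All si-GLMP values lay below all NC values, NC replicate 2 being the highest, and the log2 fold change was -0.36 ± 0.07 (edgeR adjusted p = 5.01e-05), or -0.28 without that library. TJP3, which encodes ZO-3, was much less abundant and rose from 8.44 to 11.05 CPM (0.39 ± 0.13, edgeR adjusted p = 0.0188). The TJP3 call was lost without NC replicate 1 (edgeR adjusted p = 0.0521), NC replicate 3 (0.121) or si-GLMP replicate 3 (0.0911). CGN, the cingulin gene, was at 28.6 and 33.5 CPM (0.23 ± 0.09), and its edgeR adjusted p of 0.0475 held in 5 of 14 alternatives, ranging from 0.00987 to 0.164; it was lost without any 1 of NC replicates 1 to 3 or si-GLMP replicates 1 and 3, at 0.143, 0.0807, 0.118, 0.0998 and 0.164. CGNL1, the paracingulin gene, was not called (2.41 and 1.59 CPM, -0.60 ± 0.25, edgeR adjusted p = 0.0680).

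Of the 4 polarity genes, PARD6B, which encodes an adaptor of atypical protein kinase C, rose from 13.3 to 17.0 CPM (0.35 ± 0.11, edgeR adjusted p = 0.0217). That call was lost without NC replicate 2 (edgeR adjusted p = 0.202) or si-GLMP replicate 1 (0.111), and without NC replicate 2 the log2 fold change was 0.22. PARD3, the scaffold of the same complex, was just outside the threshold at 57.3 and 49.97 CPM (-0.20 ± 0.08, edgeR adjusted p = 0.0549). PARD3 passed with a filter of 1 CPM (0.0490), without si-GLMP replicate 2 (0.0354), with the replicate number as a block (0.0397) and after GC and length correction (0.0447). CRB3, the Crumbs protein of epithelia, was at 8.55 and 9.41 CPM, and PATJ, a multi-PDZ scaffold of the Crumbs complex, at 96.5 and 95.6 CPM, neither called.

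At the adherens junction, 2 of the 3 nectin genes rose, and NECTIN4 had the largest log2 fold change of the 39 junction genes tested. NECTIN4 (ENSG00000143217), a nectin present in several carcinomas and the target of the antibody-drug conjugate enfortumab vedotin, was at 15.7, 15.8 and 17.0 CPM in NC and at 44.3, 40.8 and 35.2 CPM in si-GLMP. The lowest si-GLMP library was above the highest NC library by a wide margin, a 2.48-fold rise that was 1.31 ± 0.10 on the log2 scale (edgeR adjusted p = 2.01e-16). NECTIN1 (ENSG00000110400), the most abundant of the 3 nectins per kilobase, was at 274.5, 301.9 and 270.6 CPM in NC and at 447.1, 392.8 and 404.7 CPM in si-GLMP. Its groups did not overlap either, and the log2 fold change was 0.56 ± 0.07 (edgeR adjusted p = 1.43e-09). NECTIN2 did not pass, at 73.2 and 65.8 CPM (-0.15 ± 0.08, adjusted p = 0.149 with edgeR), but passed after GC and length correction (0.0361). AFDN, which encodes afadin, the actin linker of the nectins, was at 174.4 and 172.5 CPM and not called. As shares of nectin RNA per kilobase, NECTIN4 went from 7.03% to 8.21% in the NC libraries to 12.2% to 14.9% in the si-GLMP libraries, and NECTIN2 from 31.9% to 32.3% to 19.8% to 23.8%.

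The cadherin-catenin genes rose slightly or were not called. CDH1 (ENSG00000039068), which encodes E-cadherin, was at 300.2, 344.6 and 300.6 CPM in NC and at 375.6, 383.1 and 404.5 CPM in si-GLMP. The groups did not overlap, although NC replicate 2 came close, and the log2 fold change was 0.30 ± 0.07 (edgeR adjusted p = 0.000358). CDH3, the P-cadherin gene that lies 14608 bases from CDH1 on chromosome 16, did not pass, with 360.1 ± 36.8 and 376.4 ± 29.8 CPM (0.06 ± 0.07, edgeR adjusted p = 0.561). Its value ran from 0.0053 without si-GLMP replicate 1 to 0.1525 without NC replicate 2, with 0.0235, 0.0246 and 0.1203 without NC replicate 1, NC replicate 3 and si-GLMP replicate 2. In the annotation CDH3 shares 11.1% of its exonic length with an antisense gene. Per kilobase CDH1 made up 46.4% to 47.3% of the RNA of these 2 cadherins in NC and 48.3% to 52.7% in si-GLMP.

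CTNNA1, which encodes the catenin that links cadherins to actin, rose from 77.5 to 93.7 CPM (0.27 ± 0.07, edgeR adjusted p = 0.00238). CTNNB1 (ENSG00000168036), the beta-catenin gene, was at 388.8, 368.9 and 383.4 CPM in NC and at 409.4, 369.7 and 365.1 CPM in si-GLMP. The CTNNB1 groups lay over each other, at a log2 fold change of 0.0038 ± 0.0636 (adjusted p = 0.979, edgeR). CTNND1, the p120 catenin gene, was at 17.5 and 18.6 CPM and not called. The read-through gene TMX2-CTNND1 shares 3.6% of the exonic length of CTNND1 on the same strand in the annotation, and another gene model 3.3%. How reads were divided among them is not known, so the level of CTNND1 is uncertain.

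**Figure D2:**
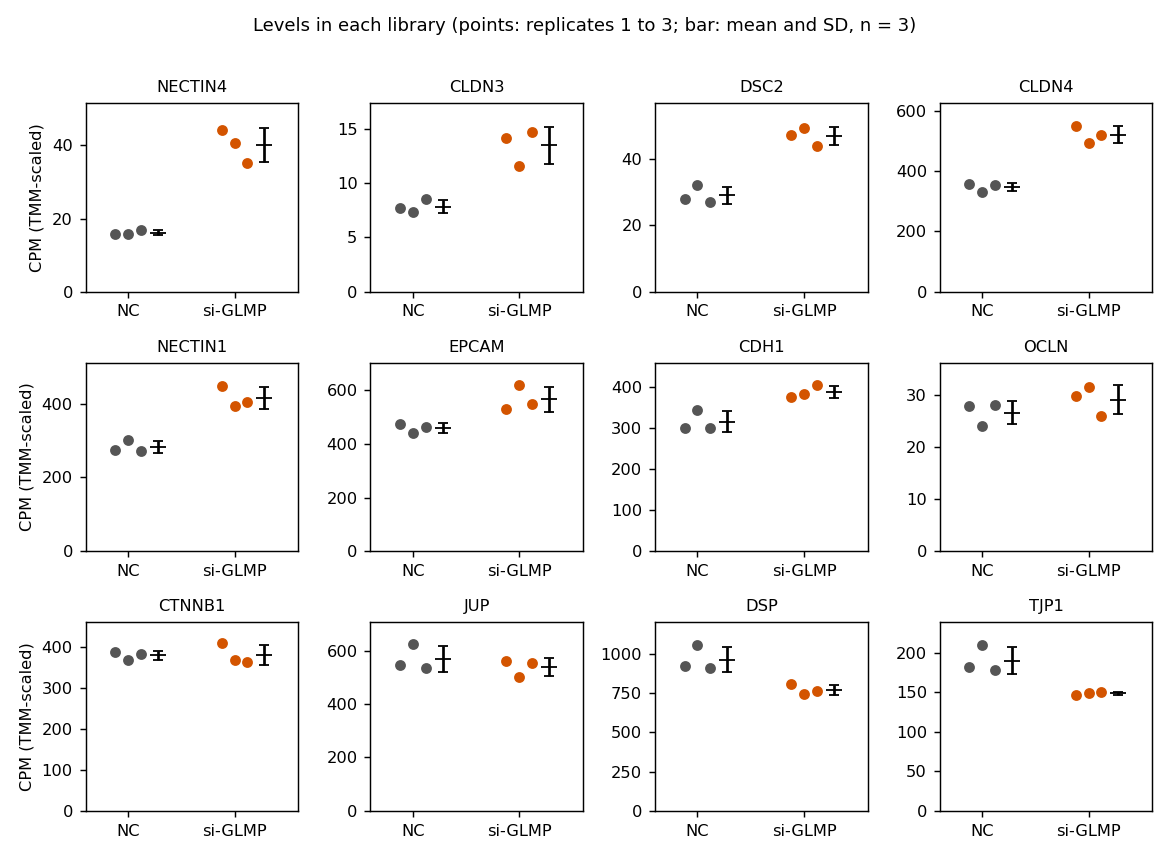
Level in each library (CPM, TMM-scaled, axes from 0) of 12 junction genes, with the mean and SD of each group (n = 3). NECTIN4, CLDN3, DSC2, CLDN4, NECTIN1, EPCAM and CDH1 are higher in each si-GLMP library than in each NC library, DSP and TJP1 are lower, and OCLN, CTNNB1 and JUP overlap.

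In the desmosome, DSP and 2 plakophilin genes fell while 1 desmosomal cadherin gene, DSC2, rose. DSP (ENSG00000096696), which encodes desmoplakin, the plakin that binds keratin, had the highest CPM of the 42 genes, at 925.4, 1057.9 and 909.8 CPM in NC and at 809.1, 745.3 and 762.1 CPM in si-GLMP. Each si-GLMP library was below each NC library, and the log2 fold change was -0.32 ± 0.06 (edgeR adjusted p = 0.000129). NC replicate 2 was the highest library, and without it DSP had -0.25 and an edgeR adjusted p of 0.00328. The other plakins, PPL for periplakin and EVPL for envoplakin, were not called, at 135.5 and 150.9 CPM and at 68.7 and 63.2 CPM. PPL had an edgeR adjusted p of 0.0932, which became 0.0151 without si-GLMP replicate 2 and 0.00835 after GC and length correction.

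DSC2 (ENSG00000134755), the desmocollin gene of simple epithelia, was at 27.9, 32.0 and 27.07 CPM in NC and at 47.2, 49.4 and 43.8 CPM in si-GLMP. Its groups were well separated, and the log2 fold change was 0.69 ± 0.09 (edgeR adjusted p = 5.21e-09). DSG2, its desmoglein partner, did not pass, with 256.9 ± 6.89 and 284.9 ± 23.7 CPM (0.15 ± 0.07, edgeR adjusted p = 0.0955), but passed without si-GLMP replicate 1 (0.0178) and after GC and length correction (0.00559). Per kilobase, DSC2 took 4.97% to 5.65% of desmosomal cadherin RNA in NC and 7.03% to 8.23% in si-GLMP, the rest being nearly all DSG2. The genes of stratified epithelia in this family were close to absent. DSG3 had 5 to 6 counts in an NC library and 5 to 7 in a si-GLMP library, DSC3 had 0 to 2 counts in any library, and PKP1 had 4 to 13. All 4 desmosomal cadherin genes lie in 1 cluster on chromosome 18.

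Among the armadillo proteins, 2 plakophilin genes fell. PKP4, whose protein is found at both desmosomes and adherens junctions, fell from 65.8 to 46.7 CPM (-0.495 ± 0.08, edgeR adjusted p = 1.05e-06). PKP2, the plakophilin of simple epithelia and heart, fell from 181.3 to 153.8 CPM (-0.24 ± 0.07, edgeR adjusted p = 0.00546), a call that was lost without NC replicate 2 (0.0563). PKP3 did not pass, with 206.4 and 227.3 CPM (edgeR adjusted p = 0.147), but passed after GC and length correction (0.0208). JUP (ENSG00000173801), which encodes plakoglobin, the armadillo protein shared by desmosomes and adherens junctions, was at 545.6, 624.7 and 536.2 CPM in NC and at 560.9, 500.9 and 554.2 CPM in si-GLMP. The JUP groups overlapped, and it was not called (-0.08 ± 0.07, edgeR adjusted p = 0.432). The JUP value was -0.005 when NC replicate 2 was dropped, -0.0281 when si-GLMP replicate 2 was, and between -0.0931 and -0.1178 without any 1 of the other 4 libraries. PERP, a membrane protein of desmosomes and a p53 target, was higher in each si-GLMP library than in each NC library, but by little (594.0 ± 17.4 and 630.6 ± 15.8 CPM, 0.09 ± 0.06, edgeR adjusted p = 0.346). PERP was 1 of 23 of the 39 junction genes, 59.0%, whose CPM ranges did not overlap between groups, against 36.5% of all tested genes.

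**Figure D3:**
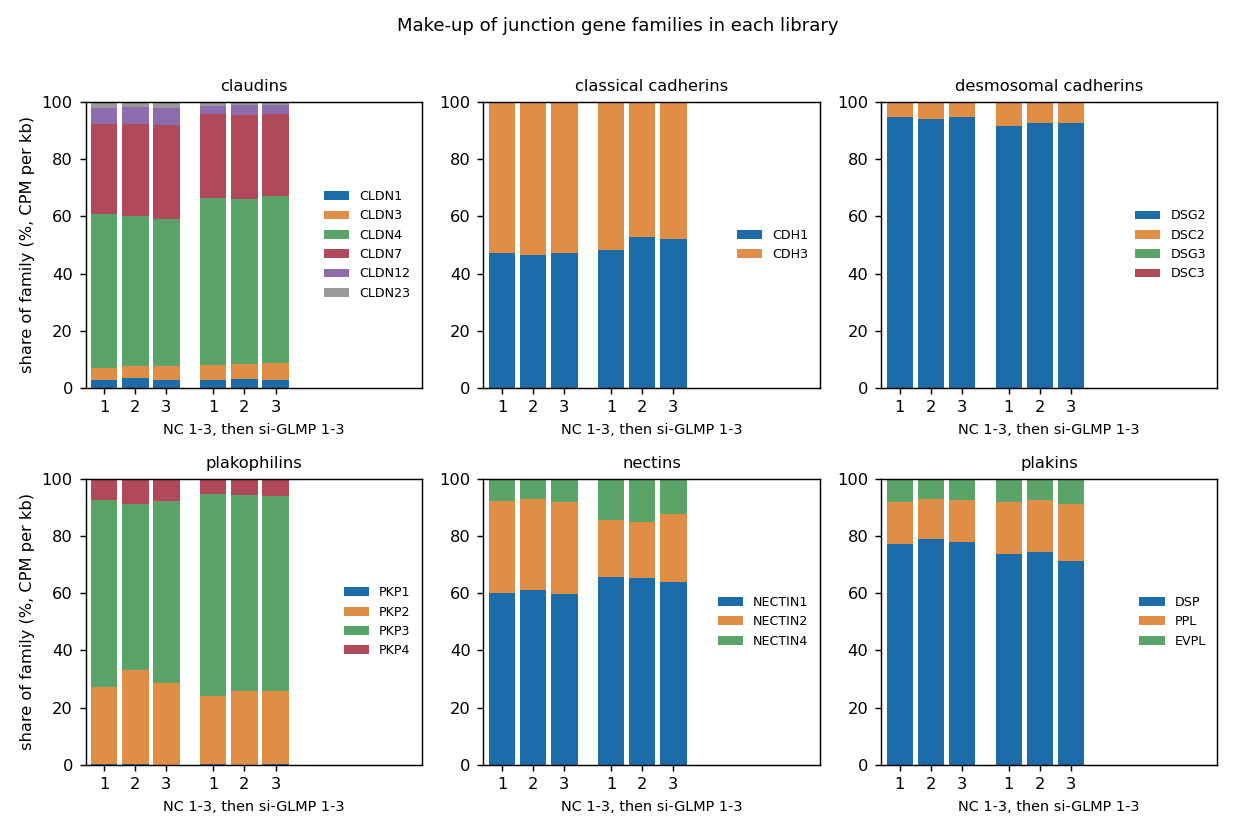
Share of each gene in the summed RNA of its family, per kilobase of exon, in NC libraries 1 to 3 and si-GLMP libraries 1 to 3. The CLDN4 share is 51.7% to 53.9% in NC and 58.0% to 58.6% in si-GLMP, NECTIN4 takes a larger share of the nectins in si-GLMP, and DSG2 makes up 91.7% to 94.9% of desmosomal cadherin RNA.

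EPCAM (ENSG00000119888), an adhesion molecule that binds CLDN7 and protects it from degradation, was at 475.8, 439.7 and 463.0 CPM in NC and at 532.4, 619.7 and 547.5 CPM in si-GLMP. The groups did not overlap, and the log2 fold change was 0.30 ± 0.06 (edgeR adjusted p = 0.000294). ST14, which encodes matriptase, a membrane protease that cleaves EPCAM, rose from 159.2 to 220.2 CPM (0.47 ± 0.07, edgeR adjusted p = 1.08e-07). In the list of other genes of this protease pathway, 4 of 5 were higher, where 12.0% of all tested genes were. The number lower was 0, where 11.3% of all tested genes were, and also 0 at an unadjusted p under 0.05, with DESeq2 and with limma-voom. In a list of 5 genes, 0 lower is not informative beside such a share. F2RL1, a receptor that matriptase activates, rose from 266.5 to 360.1 CPM (0.43), and SPINT1, which encodes the main matriptase inhibitor, from 79.7 to 104.9 CPM (0.40). SPINT2, a related inhibitor, had 0.19 (edgeR adjusted p = 0.0256) and PRSS8, the protease prostasin, 0.26 (edgeR adjusted p = 0.0353). The count of 4 fell to 2 on leaving out replicate 1 or 3 of either NC or si-GLMP.

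Further genes of the same structures were taken from longer lists. Of 35 other tight junction genes 22 were tested, and 1 was higher and 4 lower, together 22.7%, near the 23.3% of all tested genes. MAGI1, a scaffold of tight and adherens junctions, fell from 16.6 to 10.1 CPM (-0.72 ± 0.11, edgeR adjusted p = 1.51e-06). PRKCI, the atypical protein kinase C of the PAR complex, had -0.27 and MARK2, a polarity kinase, -0.21. The fourth that fell, named after its value was seen because it lies outside the naming rule, was PALS1, the partner of PATJ and CRB3 (edgeR adjusted p = 0.0359). LSR, which recruits tricellulin, was the 1 higher gene at 0.26. Without si-GLMP replicate 3 the calls in this list were 1 higher and 2 lower. Of 19 other adherens junction genes 12 were tested, and 1 was higher and 5 lower, 8.33% and 41.7% against 12.0% and 11.3% of all tested genes, with a median log2 fold change of -0.25. SHROOM2, an actin regulator of apical junctions, fell from 28.2 to 15.8 CPM (-0.83), CTNNAL1, an alpha-catenin relative, from 165.4 to 99.98 CPM (-0.73), and AJUBA, a LIM protein of adherens junctions, from 195.9 to 136.2 CPM (-0.52). PVR, a nectin-like receptor, was the 1 higher gene at 0.25. The other 2 that fell, named after their values were seen because they lie outside the naming rule, were SHROOM3 (-0.25) and CDH2, the N-cadherin gene (-0.57, from 4.001 to 2.694 CPM).

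Of 6 hemidesmosome genes, which anchor the cell to its matrix, 1 was higher, the tetraspanin CD151 at 0.30, and 0 lower. That is 16.7% called, against 23.3% of all tested genes. At an unadjusted p under 0.05 there was 1 lower, with DESeq2 and limma-voom 0, and without si-GLMP replicate 1 there were 1 higher and 1 lower. None of the 4 other desmosome genes, DSC1, DSG1, DSG4 and CDSN, passed the filter on low counts.

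The called genes differed in length and base composition. The 14 junction genes called higher had a median exonic length of 4526 bases and a median GC content of 55.8%, and the 6 called lower 8284 bases and 46.8%, against 4493 bases and 48.6% over all tested genes. Over the whole table, genes called higher had 4454.5 bases and 50.9%, and genes called lower 5993 bases and 47.7%. The part of length and base composition in the calls was not tested beyond the fit that follows. With a smooth trend on GC content and length removed from each library (the GC and length correction), a fit chosen after seeing the data, each of the 20 called junction genes kept its call and direction, and PARD3, NECTIN2, DSG2, PKP3 and PPL were called as well. In that fit 17 were higher and 8 lower of 39.

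**Figure D4:**
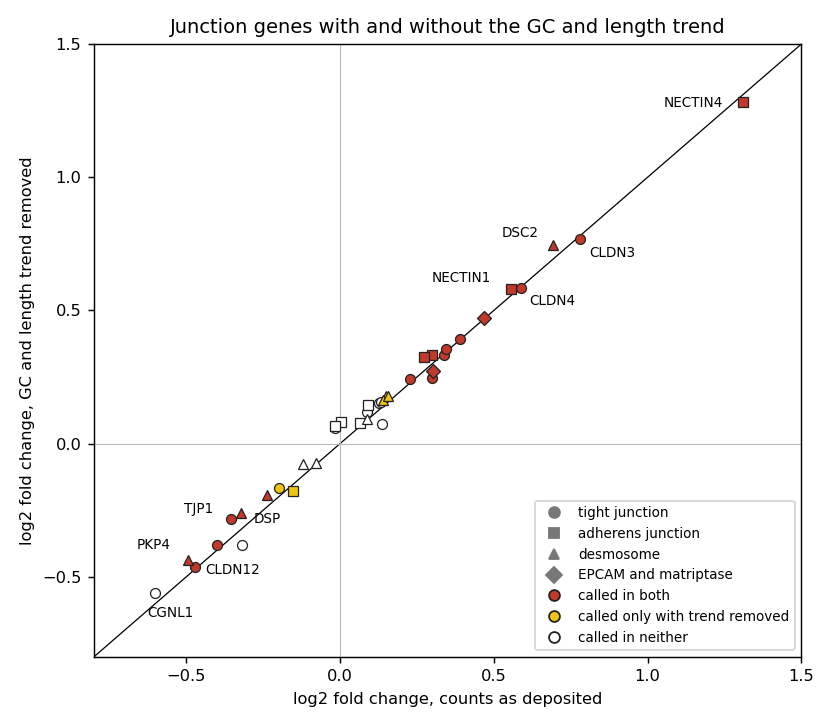
Log2 fold change of each tested junction gene from the counts as deposited (x axis) and after GC and length correction (y axis); the line marks equality. The points lie close to the line, from CGNL1 at -0.60 to NECTIN4 at 1.31 on the x axis, and the 5 yellow points were called only with the trend removed.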

How the data were processed

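Reads per gene were deposited by the authors as whole-number counts, 1 column per library, with Ensembl identifiers and symbols and no normalization; totals differ between libraries. The submitters' processing notes list HISAT2, without a version or role, and GRCh38. How reads were counted, from which annotation and with what strand setting is not given in the sources used here; where genes overlap on both strands, their reads may be mixed. All 6 columns were matched to samples by title, and groups and replicate numbers come from the titles. All 42 symbols were in the table.

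Counts were fitted with edgeR 4.0.16 (R 4.3.3): filterByExpr with a minimum count of 10, TMM scaling, robust dispersions, and the quasi-likelihood F test on group alone, with Benjamini-Hochberg adjustment over 15900 genes; "called" means an adjusted p under 0.05. The standard error was taken as the log2 fold change over the root of F. Levels are CPM on TMM-scaled totals. Lengths, overlaps and gene positions come from GENCODE 29 on GRCh38. Summed exonic length per gene was used for values per kilobase.

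The genes and lists were chosen with earlier results of these data known. Values in every library are given for called genes with an absolute log2 fold change of at least 0.5 and for CLDN4, OCLN, TJP1, CDH1, EPCAM, CTNNB1, DSP and JUP; called genes otherwise get group means and a fold change, and up to 4 called genes per further list are named. Alternatives were RLE and upper-quartile scaling, 2 other filters, each library left out, a replicate block, DESeq2 1.42.0, limma-voom (limma 3.58.1) and, added later, removal of a GC and length trend (mgcv 1.9.3). The statistics were tested on simulated data. The list of gap junction genes is not reported here. The counts limit the precision of the least abundant genes, and the floor covers counting error only.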

Additional observations from a re-analysis of the deposited data

How the results depend on the processing

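Each junction gene was refitted under 14 alternatives. Leaving out 1 library at a time gave 17 to 21 junction genes called, 7 to 10 of the tight junction, 4 of the adherens junction and 3 to 5 of the desmosome, against 2804 to 3448 of all tested genes; the log2 fold change of GLMP ran from -2.40 to -2.15. Over the same fits the calls ran from 3 to 6 among other tight junction genes and 4 to 7 among other adherens junction genes. They ran from 2 to 4 in the matriptase list and from 1 to 2 among hemidesmosome genes. After removal of the GC and length trend, 7 desmosome genes and 25 junction genes were called; the cause was not tested. DESeq2 and limma-voom each called 19 junction genes. The only changes of sign were in genes not called. PATJ had 0.0095 without si-GLMP replicate 3 and 0.0602 after removal of the GC and length trend, -0.0148 as reported and -0.0289 to 0.0095 over the fits with 1 library left out; AFDN had 0.0679 after that removal. CTNNB1 had -0.0167 without NC replicate 2, -0.0503 without si-GLMP replicate 1, -4.3e-06 with RLE scaling and -9.9e-06 with DESeq2; over the fits with 1 library left out it ran from -0.0503 to 0.0412. The scalings moved the median of all genes by at most 0.009.

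The replicate numbers paired the libraries weakly at most: same-numbered libraries had correlations of 0.0388, 0.0263 and 0.0013 of their deviations from the group means. NC replicates 1 and 2 each correlated best with the si-GLMP library of the same number, and NC replicate 3 with si-GLMP replicate 2 (0.0096). With the replicate number as a block, 3972 genes and 21 junction genes were called, the junction genes as 14 higher and 7 lower, PARD3 being the gene added. Depth limits DSG3, DSC3 and PKP1, for which a difference was not detectable at this depth.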
